A study of Mus musculus with 9 samples.

Results

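The 10 genes described here encode the core enzymes that turn arachidonic acid into eicosanoids, and they were taken by name from a fixed list of symbols: Alox5, Alox5ap, Alox15, Lta4h, Ltc4s, Ptgs1, Ptgs2, Hpgds, Tbxas1 and Ptges. All 10 were found among the 53379 genes of the RNA-seq table, and 9 of them passed the filter of a mean of at least 0.5 FPKM (fragments per kilobase of exon, scaled to the library's total) that left 12824 genes for testing. Alox15 was the exception. The table holds 9 libraries of bone marrow-derived macrophages (Mϕs) from wild-type C57BL/6 mice, cultured from unsorted marrow with 10 ng/ml macrophage colony-stimulating factor (MCSF) for 3 days. For the next 4 days the control group stayed in 10 ng/ml MCSF alone, the IL-4 group received 10 ng/ml IL-4 with MCSF and the IL-6 group received 100 ng/ml IL-6 with MCSF (n = 3 libraries per group). All groups thus received MCSF throughout. The comparisons ask how these cytokines, both of which act on Mϕs in tumors, change gene expression.

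Eicosanoids are short-lived lipid messengers. Phospholipases free arachidonic acid from membranes, the cyclooxygenases Ptgs1 and Ptgs2 oxidize it to prostaglandin H2, and terminal synthases convert that intermediate to prostaglandin D2 (Hpgds), thromboxane A2 (Tbxas1) or prostaglandin E2 (Ptges). In the other branch the 5-lipoxygenase Alox5, aided by its membrane partner Alox5ap, makes leukotriene A4, which Lta4h hydrolyses to leukotriene B4 and Ltc4s joins to glutathione to give leukotriene C4, while Alox15 oxidizes other carbons of the chain. Mϕs are a classic source of both families, and prostaglandin E2 is known for restraining T cells.

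The libraries held 29988160 to 39909571 fragments, as read from the steps of the FPKM values. The groups were told apart by known targets of the cytokines: for Arg1, an arginase induced by IL-4, the IL-4 group exceeded control by 10.58 on the log2 scale, and for Socs3, a feedback inhibitor induced by IL-6, the IL-6 group exceeded control by 5.12 (limma). However, the libraries also fell into sets that the labels do not give. Summed over 18 genes of intestinal Paneth and goblet cells, which are not known from cultured Mϕs, the 3 control libraries and IL-4 #1 held 1176 to 1570 fragments and the other 5 libraries held 3 to 8. IL-4 can be compared with control, and IL-6 with IL-4, within a set, but no set holds both control and IL-6 libraries, so for that pair the treatment and the set cannot be told apart directly. A model that includes the set draws the set effect from IL-4 #1 against IL-4 #2 and #3 alone, and its values for IL-6 against control rest on that 1 library. The part of the set in the results was not tested beyond the within-set ratios and a fit that includes the set, both given below. In RNA from whole cultures, fewer cells of a type and less RNA per cell cannot be told apart.

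In control Mϕs the 10 enzymes spanned a wide range of levels per length. Alox5ap was the highest, at 224 ± 24.4 FPKM (mean ± SD, n = 3), followed by Hpgds at 51.7 ± 9.82, Tbxas1 at 34.7 ± 0.896, Lta4h at 21.4 ± 1.57 and Ptgs1 at 18.4 ± 1.71. The ranges of Lta4h and Ptgs1 overlapped, and every other pair of neighbours in the order was separate. Alox5 (4.95 ± 0.308), Ltc4s (3.30 ± 0.650), Ptges (0.928 ± 0.0975), Alox15 (0.662 ± 0.0486) and Ptgs2 (0.146 ± 0.0631) made up the low end. By FPKM, the 5-lipoxygenase partner protein, prostaglandin D2 synthase and thromboxane synthase therefore led in control Mϕs, with very little inducible cyclooxygenase. FPKM divides fragments by summed exon length, which was 1420 bases for Alox5ap, 6425 for Hpgds and 9094 for Tbxas1. In fragments per control library these genes overlapped, at 9804 to 11327, 8204 to 13928 and 9736 to 10937. In IL-4 Mϕs Hpgds dropped to the fifth place, with a range that overlapped that of Alox5, and Tbxas1 and Ptgs1 followed Alox5ap with overlapping ranges. In IL-6 Mϕs Ptgs2 moved from the last place to the seventh, overlapping Ltc4s.

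**Figure D1:**
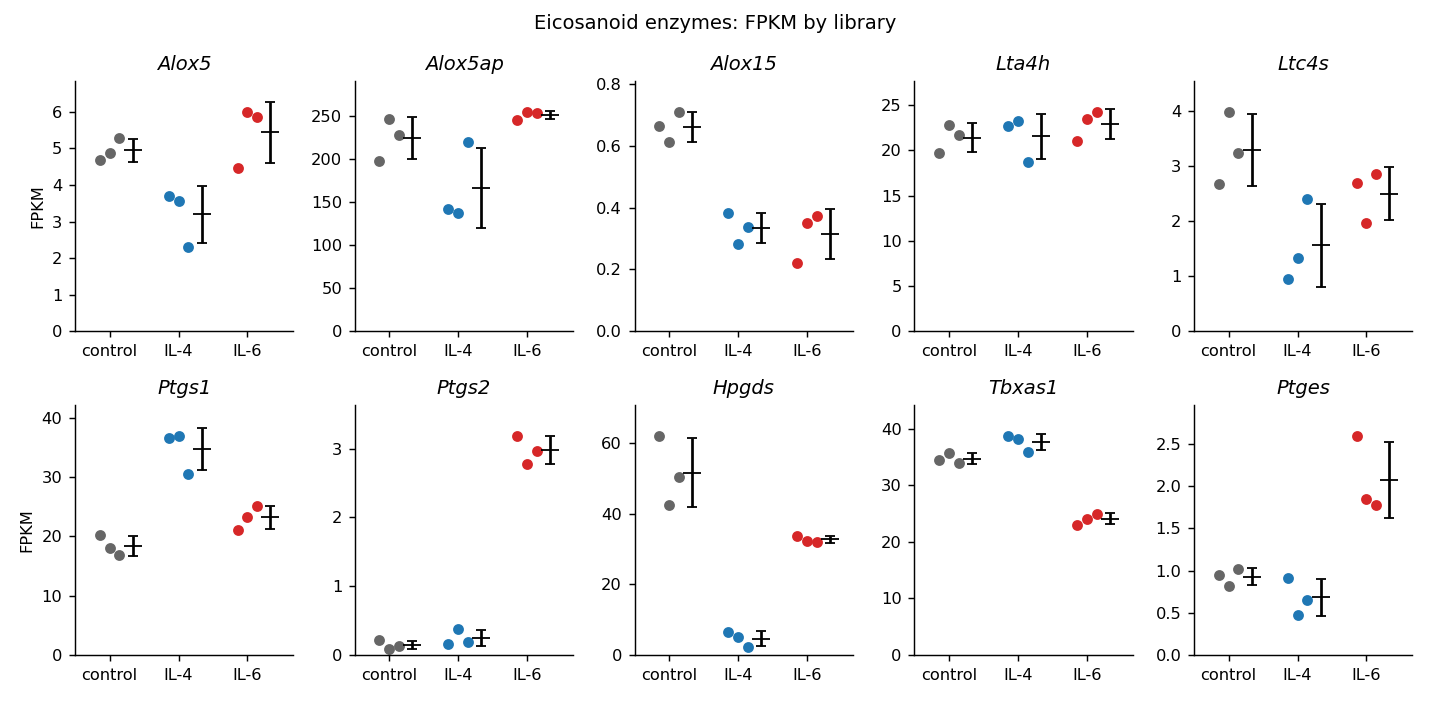
FPKM of the 10 enzymes (vertical axes, linear, from 0, scaled per gene) in each of the 9 libraries, in the order #1 to #3 within control (grey), IL-4 (blue) and IL-6 (red); black marks are the mean ± SD of 3 libraries. The 3 IL-4 libraries sit at 2.25 to 6.40 FPKM for Hpgds, under all control and IL-6 libraries, and the 3 IL-6 libraries sit at 2.78 to 3.19 FPKM for Ptgs2, above all others.

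Throughout, a gene was called changed at an adjusted p under 0.05 (limma on log2(FPKM + 0.1), Benjamini-Hochberg over all genes tested) together with a log2 fold change beyond 1 or -1. By that rule IL-4 changed 2 of the 10 enzymes, both lower (Hpgds and Ltc4s), against 13.9% of all genes tested, 5.02% higher and 8.89% lower. IL-6 changed 2 of 10 against control, both higher (Ptgs2 and Ptges), against 5.38% of all genes, 3.49% higher and 1.89% lower. Between the cytokines, 3 of 10 were called, all higher with IL-6 than with IL-4 (Ptgs2, Ptges and Hpgds), against 20.4% of all genes, 13.6% higher and 6.82% lower. With so few members these counts are a description. The median log2 fold change of the 10 enzymes was -0.44 for IL-4 and 0.11 for IL-6, each set against control, and 0.68 between IL-6 and IL-4, beside -0.20, -0.00 and 0.22 over all genes tested. Both cytokine groups were compared with the same 3 control libraries.

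**Figure D2:**
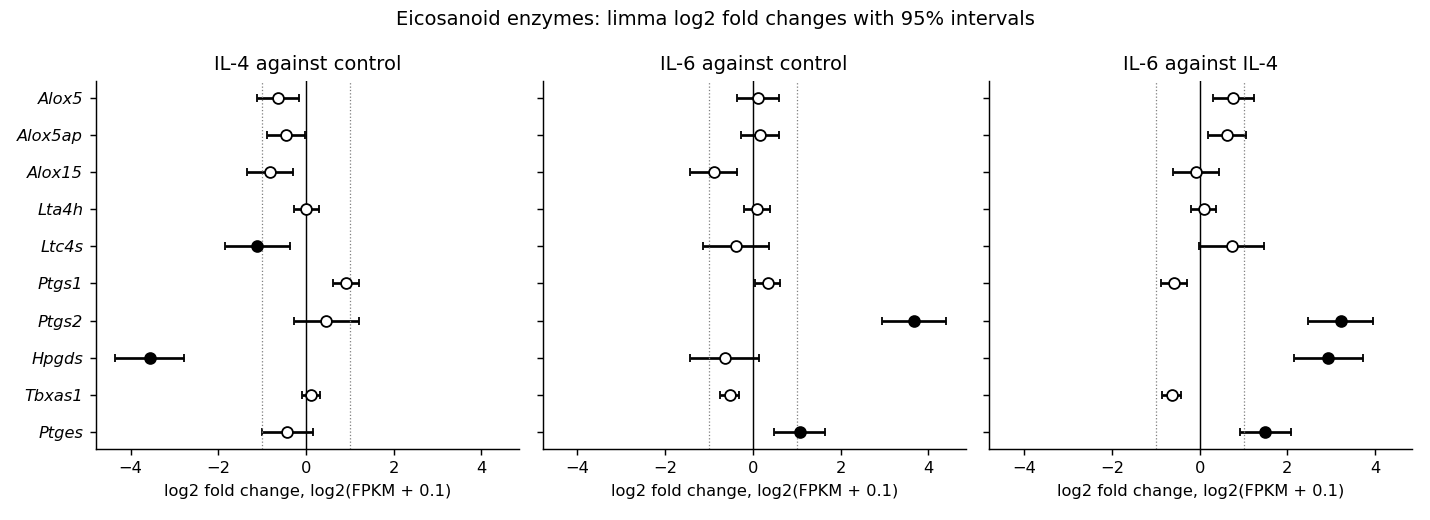
Log2 fold changes of the 10 enzymes on the log2(FPKM + 0.1) scale (horizontal axes) with 95% intervals from limma, for IL-4 against control, IL-6 against control and IL-6 against IL-4; filled points were called and dotted lines mark -1 and 1. Hpgds lies at -3.57 with IL-4, Ptgs2 at 3.68 with IL-6, and most other enzymes lie between the dotted lines.

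Of the cyclooxygenases, which open the prostanoid branch, the constitutive enzyme was highest with IL-4 and the inducible one with IL-6. Ptgs1 (ENSMUSG00000047250.13, chr2:36230426-36252272, plus strand), the constitutive cyclooxygenase, was at 20.2, 18.0 and 16.9 FPKM in control #1 to #3, at 36.6, 36.9 and 30.6 in the IL-4 libraries and at 21.1, 23.3 and 25.1 in the IL-6 libraries. Every IL-4 library thus lay above every control and IL-6 library. The log2 fold change with IL-4 was 0.91 (SE 0.129, adjusted p = 0.00136 by limma), a mean 1.89-fold higher that missed the threshold of 1 for a call. It was 1.11 with median ratio scaling and 1.00 without IL-4 #3, both of which passed. Within the set of libraries that shares intestinal fragments, IL-4 #1 stood at 1.99 times the control mean. With IL-6 the 3 libraries also lay above the controls without overlap, but the log2 fold change was 0.33 with an adjusted p of 0.178. IL-6 was lower than IL-4 by a log2 fold change of -0.58 (adjusted p = 0.00962, limma).

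Ptgs2 (ENSMUSG00000032487.8, chr1:150100031-150108227, plus strand), the inducible cyclooxygenase of inflammation, was scarcely detected in control Mϕs. It measured 0.213, 0.0874 and 0.137 FPKM in the controls, 0.160, 0.382 and 0.192 with IL-4, and 3.19, 2.78 and 2.97 under IL-6. In fragments, these were 12 to 34 in the controls, 25 to 53 with IL-4 and 416 to 509 under IL-6. All 3 IL-6 libraries were therefore far above the other 6, among which control and IL-4 overlapped. Ptgs2 rose 20.5-fold in mean FPKM with IL-6, or 3.68 on the log2 scale (SE 0.321, adjusted p = 0.000385 by limma), which was 3.15 (adjusted p = 0.0458) once the model included the library set. Against IL-4 the difference was 3.21 (SE 0.321, adjusted p = 0.000158), and within the set that holds IL-4 #2 and #3 and all IL-6 libraries the ratio was 10.4. Ptgs2 passed the filter, with a mean of 1.12 FPKM over the 9 libraries, only through its IL-6 libraries, and without the filter the adjusted p against control was 0.000705. The pseudocount sets part of this size: with 1 in place of 0.1 the log2 fold change against control was 1.80. For IL-4 against control the value was 0.46, with a 95% interval from -0.27 to 1.20 and an adjusted p of 0.33. Even after induction, Ptgs2 remained the minor transcript: it made up 11.5% ± 1.43 of the summed cyclooxygenase FPKM with IL-6, against 0.776% ± 0.280 in control and 0.694% ± 0.301 with IL-4 (SD, n = 3).

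The terminal synthases shifted as well, most of all through prostaglandin D2 synthase. Hpgds (ENSMUSG00000029919.5, chr6:65117293-65144908, minus strand) was at 62.1, 42.6 and 50.5 FPKM in the controls, 6.40, 5.15 and 2.25 with IL-4 and 33.8, 32.4 and 32.0 under IL-6. The 3 groups did not overlap, with IL-4 at the bottom and control at the top. Hpgds fell by 3.57 on the log2 scale with IL-4 (SE 0.342, adjusted p = 0.00021 by limma), an 11.2-fold lower mean. IL-4 #1, compared with the controls of its own set, was 8.09-fold lower. The call held in all 21 alternatives, with log2 fold changes from -3.86 to -2.98. With IL-6 the mean was 63.3% of control, a log2 fold change of -0.64 with an adjusted p of 0.345, and this value turned to 0.24 (adjusted p = 0.753) once the model included the library set, so no direction is given for it. IL-6 Mϕs were higher in Hpgds than IL-4 Mϕs by 2.93 on the log2 scale (SE 0.342, adjusted p = 0.000412), and 8.84-fold higher within their shared set.

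Thromboxane synthase stayed within a narrow range. Tbxas1 (ENSMUSG00000029925.13, chr6:38875404-39084585, plus strand) was at 34.5, 35.7 and 34.0 FPKM in the controls, 38.7, 38.1 and 36.0 with IL-4 and 23.0, 24.1 and 25.0 under IL-6. Replicates were tight, and all 3 groups were separate, with IL-6 lowest. IL-6 against control gave a log2 fold change of -0.53 (SE 0.0933, adjusted p = 0.0108 by limma), which passed on adjusted p and missed the fold threshold, and the adjusted p was 0.231 once the model included the library set. IL-6 against IL-4 gave -0.64 (adjusted p = 0.00118) with a within-set ratio of 0.649. With IL-4 the value was 0.11 (95% interval -0.10 to 0.33, adjusted p = 0.409).

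Ptges (ENSMUSG00000050737.13, chr2:30889471-30929863, minus strand), the microsomal prostaglandin E synthase that is often induced together with Ptgs2, was low in every group. It stood at 0.947, 0.823 and 1.02 FPKM in the controls, 0.908, 0.478 and 0.657 with IL-4, and 2.60, 1.85 and 1.77 under IL-6. The IL-6 libraries lay above all others, whereas control and IL-4 overlapped. Ptges rose 2.23-fold with IL-6 against control, or 1.06 on the log2 scale (SE 0.255, adjusted p = 0.0387 by limma). This call was close to both thresholds and was lost when any single control or IL-6 library was left out, with log2 fold changes of 0.90 to 1.16, and once the model included the library set (1.67, adjusted p = 0.104). Against IL-4 the rise was firmer, at 1.49 (SE 0.255, adjusted p = 0.0027), with a within-set ratio of 3.66. For IL-4 against control the value was -0.43, with a 95% interval from -1.01 to 0.15.

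Summed over the 3 terminal synthases, the makeup of the FPKM, which depends on the exon lengths, differed between the cytokines. Hpgds made up 58.9% ± 4.93 of their FPKM in control, 10.5% ± 4.20 with IL-4 and 55.6% ± 1.22 under IL-6, while Tbxas1 made up 40.1% ± 4.90, 87.9% ± 4.25 and 40.9% ± 1.93 (SD, n = 3). The share of Ptges was 1.07% ± 0.110, 1.59% ± 0.450 and 3.52% ± 0.737. The summed level was 87.4 ± 9.34 FPKM in control, 42.9 ± 3.65 with IL-4 and 58.9 ± 0.558 under IL-6. IL-4 Mϕs thus had the highest summed cyclooxygenase level (35.0 ± 3.63 FPKM, against 18.5 ± 1.75 in control and 26.2 ± 1.88 with IL-6) beside the lowest summed level of these synthases.

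**Figure D3:**
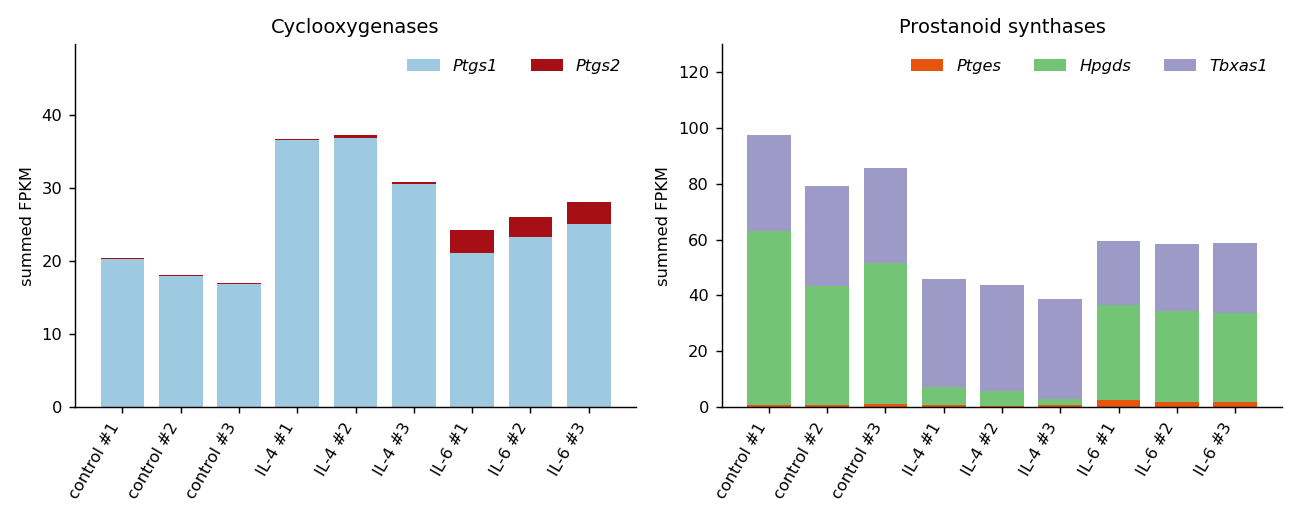
Summed FPKM per library (vertical axes, from 0) of the cyclooxygenases Ptgs1 and Ptgs2 (left) and of the prostanoid synthases Ptges, Hpgds and Tbxas1 (right), stacked by gene, for the 9 libraries named on the horizontal axes. Ptgs2 is visible in the IL-6 libraries, at 10.6% to 13.1% of the sum, and Hpgds shrinks to 5.80% to 13.9% of the sum in the IL-4 libraries.

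Ptgs2 and Ptges, which act in sequence to make prostaglandin E2, were the members called higher with IL-6, and the bases just before their starts are shown for that reason. RefSeq (GRCm38.p6) holds the starts of 8 of the 10 enzymes, with Alox15 and Alox5ap unmatched. The sequences are the 250 bases before the start, read 5′ to 3′ on the strand of the gene, from chr1:150099781-150100030 (plus strand) for Ptgs2 and from chr2:30903298-30903547 (minus strand) for Ptges, and no exon of the same gene in the GENCODE M21 annotation falls in either. For Ptges, RefSeq's start lies inside the longer GENCODE model. Capitals mark the GC box letters GGGCGG in both genes and, in Ptges, the 10 letters TTCAAAAGAA.
Ptgs2: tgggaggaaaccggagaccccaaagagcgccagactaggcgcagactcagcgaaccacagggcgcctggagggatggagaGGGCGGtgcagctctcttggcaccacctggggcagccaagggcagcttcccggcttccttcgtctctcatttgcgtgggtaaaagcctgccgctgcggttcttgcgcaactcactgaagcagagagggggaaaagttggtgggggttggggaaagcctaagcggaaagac
Ptges: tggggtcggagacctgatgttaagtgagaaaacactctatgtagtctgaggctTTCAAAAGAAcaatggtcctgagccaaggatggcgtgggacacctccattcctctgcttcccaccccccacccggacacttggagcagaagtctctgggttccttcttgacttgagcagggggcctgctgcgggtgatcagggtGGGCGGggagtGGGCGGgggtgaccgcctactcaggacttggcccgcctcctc
The motifs searched on both strands were TTC and GAA with 4 bases between them, the spacing preferred by STAT6, TTC and GAA with 3 bases between them, the spacing of other STAT sites, the TATA box TATAAA, the GC box GGGCGG and the E-box CACGTG. The spacing of 4 was found in Ptges, 197 to 188 bases before the start, and in Tbxas1, as TTCTGGGGAA 121 to 112 bases before it, and 5.85% of all 32851 promoters hold it in 250 bases. No member held the spacing of 3 (7.02% of promoters) or the E-box (6.02%). The GC box, held by 32.7% of promoters, occurred in Alox5, once in Ptgs2 (170 to 165 bases before the start) and 2 times in Ptges. In Tbxas1 the TATA box (12.4%) was found on both strands in overlapping letters, 13 to 6 bases before the start. The last 6 bases of that window lie in an exon of Tbxas1 in GENCODE M21, whose gene model starts further upstream. Ptgs1, Lta4h, Ltc4s and Hpgds held none of the 5 motifs in this window, of which 84 bases of Ltc4s and 178 of Hpgds lie in exons of the same gene in GENCODE M21, leaving 166 and 72 bases before the longer model. These matches are letters in a window and say nothing of binding.

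The leukotriene branch opened with its most abundant transcript. Alox5ap (ENSMUSG00000060063.9, chr5:149264767-149288153, plus strand), which presents arachidonic acid to 5-lipoxygenase, was at 198, 246 and 227 FPKM in the controls, 142, 137 and 219 with IL-4 and 245, 254 and 253 under IL-6. IL-4 #3 fell among the controls while the other IL-4 libraries lay below them, and the IL-6 libraries lay near or above the top of the control range. Neither cytokine gave a call against control, with log2 fold changes of -0.46 for IL-4 (adjusted p = 0.116, limma) and 0.17 for IL-6 (adjusted p = 0.674). Without IL-4 #3 the IL-4 value was -0.68 (adjusted p = 0.00169), still under the fold threshold. The IL-6 value was -0.12 (adjusted p = 0.809) once the model included the library set. IL-6 exceeded IL-4 in all 3 libraries, by 0.63 (adjusted p = 0.0346), under the fold threshold. This adjusted p was under 0.05 in 11 of 21 alternatives.

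Alox5 (ENSMUSG00000025701.12, chr6:116410077-116461178, minus strand), the 5-lipoxygenase itself, was far lower per length than its partner. It was at 4.69, 4.87 and 5.29 FPKM in the controls, 3.71, 3.58 and 2.31 with IL-4 and 4.48, 5.99 and 5.86 under IL-6. All IL-4 libraries lay below all others, and control and IL-6 overlapped. The log2 fold change with IL-4 was -0.64 (SE 0.207, adjusted p = 0.0545 by limma), just short of the threshold on p and well under that on size. This adjusted p was under 0.05 in 3 of 20 alternatives. Once the model included the library set, the value was -0.41 (SE 0.283). IL-6 against IL-4 gave 0.77 (SE 0.207, adjusted p = 0.0225), with a within-set ratio of 1.85, and IL-6 against control gave 0.12 (adjusted p = 0.782).

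Of the enzymes that use leukotriene A4, the hydrolase varied little and the synthase more. Lta4h (ENSMUSG00000015889.8, chr10:93453411-93484875, plus strand) was at 19.7, 22.8 and 21.7 FPKM in the controls, 22.7, 23.2 and 18.7 with IL-4 and 21.1, 23.4 and 24.2 under IL-6, so that all groups overlapped. Its log2 fold changes were 0.00 with IL-4 (95% interval -0.29 to 0.29) and 0.10 with IL-6 (95% interval -0.19 to 0.39). Both intervals lay well under the fold threshold, but they come from the fit without the library set. With the set in the model the values were 0.09 (SE 0.181) with IL-4 and 0.22 (SE 0.231) with IL-6. Ltc4s (ENSMUSG00000020377.15, chr11:50236461-50238616, minus strand) was at 2.68, 3.98 and 3.23 FPKM in the controls, 0.952, 1.33 and 2.397 with IL-4 and 2.69, 1.96 and 2.86 under IL-6. The IL-4 libraries lay below the controls, with IL-4 #3 close to them, and they rested on 33 to 97 fragments.

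Ltc4s fell by 1.11 on the log2 scale with IL-4 (SE 0.323, adjusted p = 0.0381 by limma), a 2.11-fold lower mean, and IL-4 #1 was 3.46-fold lower than the controls of its set. The call was not firm: it was lost in 8 of the 9 fits that leave out a library, with the value at -0.83 (adjusted p = 0.0808) without IL-4 #1, and was kept without IL-4 #3 (-1.45, adjusted p = 0.00209). Of its exon bases, 26.4% are shared with Gm26542 on the other strand, which averaged 0.322 FPKM, and how the counting used strand is not given in the sources used here. With IL-6 the value was -0.38 (adjusted p = 0.572). Once the model included the library set, it was -1.23 (SE 0.486, adjusted p = 0.25). For IL-6 against IL-4 it was 0.72 (adjusted p = 0.113), which became 1.07 (adjusted p = 0.00756) without IL-4 #3.

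Alox15 (ENSMUSG00000018924.6, chr11:70344152-70352031, minus strand), the 12/15-lipoxygenase known from resident peritoneal Mϕs and from human monocytes given IL-4, was scarcely expressed in any library. It was at 0.665, 0.612 and 0.708 FPKM in the controls, 0.382, 0.282 and 0.337 with IL-4 and 0.222, 0.349 and 0.372 under IL-6, on 19 to 61 fragments. Both cytokine groups lay below the controls without overlap and overlapped each other. In the fit without the filter, the log2 fold changes were -0.82 with IL-4 (adjusted p = 0.0646, limma) and -0.90 with IL-6 (adjusted p = 0.0896), neither of which passed. No rise of Alox15 with IL-4 was seen, and the upper bound of the 95% interval was -0.29 in the fit without the library set. With the set in the model the values were -0.66 (SE 0.311) with IL-4 and -0.66 (SE 0.396) with IL-6.

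Without any threshold, 6 of 10 enzymes had groups that did not overlap for IL-4 against control (40.3% of all genes tested), 6 of 10 for IL-6 against control (43.2%) and 7 of 10 for IL-6 against IL-4 (56.9%). With adjusted p alone, 3 of 10 passed for IL-4 against control (24.8% of all genes), 3 of 10 for IL-6 against control (8.4%) and 7 of 10 between the cytokines (34.1%): Alox5, Alox5ap, Ptgs2, Ptges and Hpgds were higher with IL-6, and Ptgs1 and Tbxas1 were higher with IL-4. The exact permutation test of 3 libraries against 3 cannot go below p = 0.1 (two-sided), and it gave that value wherever groups did not overlap.

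Around these enzymes, 71 further genes of the pathway were listed by role, of which 48 passed the filter. With IL-4, 10 were called higher and 9 lower (39.6% of those tested), with IL-6, 8 higher and 6 lower (29.2%), and between the cytokines 13 were higher and 13 lower with IL-6 (54.2%), beside 13.9%, 5.38% and 20.4% of all genes tested. Their median log2 fold changes were 0.13, 0.10 and 0.03, beside -0.20, -0.00 and 0.22 over all genes. These genes were listed with earlier results known, so the shares are a description. Values with the library set in the model are not given for the pathway genes. Upstream, among 14 tested genes of arachidonic acid release and re-esterification, Pla2g4a, the cytosolic phospholipase A2, rose with both cytokines (1.30, adjusted p = 0.0224 with IL-4 and 1.35, adjusted p = 0.0426 with IL-6, limma). For Pla2g4a, IL-4 #1 to #3 were at 7.02, 6.39 and 2.63 FPKM, with IL-4 #3 the closest to control (1.78 to 2.09). The IL-6 libraries were at 4.94 to 5.28. Secreted Pla2g2e rose with IL-4 (2.12), and Pla2g7, which breaks down platelet-activating factor, rose with IL-6 (2.49) and, at 1.00, with IL-4. Lpcat2, which makes platelet-activating factor and rebuilds phospholipids, fell by 3.50 with IL-4 and rose by 1.16 with IL-6. Its libraries were at 27.9 to 35.4 FPKM in control, 2.37 to 3.23 with IL-4 and 69.3 to 77.9 under IL-6, with no overlap. Mgll, a lipase that frees arachidonic acid through an endocannabinoid, fell with IL-6 (-1.50, adjusted p = 0.0125).

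Other enzymes that make or remove these lipids also moved. Prxl2b, a prostaglandin F synthase named Fam213b in the annotation, fell with IL-4 (-2.75, adjusted p = 0.000707 by limma), from 53.5 to 95.5 FPKM in control to 7.55 to 17.7. Mgst2, which can also make leukotriene C4, fell with IL-4 (-1.82, adjusted p = 4.8e-05), and Mgst3 fell with IL-6 (-1.52, adjusted p = 0.0181). Hpgd, which inactivates prostaglandins, fell with IL-4 by 3.79 on the log2 scale (adjusted p = 0.00131), from 4.20 to 7.33 FPKM in control to 0.209 to 0.431. Ggt5, which converts leukotriene C4 to D4, fell with IL-4 as well (-2.14, adjusted p = 0.000307). Ephx1, an epoxide hydrolase, rose with IL-4 (1.10) and fell with IL-6 (-1.68). Alox12, the platelet-type 12-lipoxygenase and the single tested gene among 5 other lipoxygenases, fell with IL-4 (-1.29, adjusted p = 0.0273) and rose with IL-6 (1.67, adjusted p = 0.0228).

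On the receiving side, 11 receptors were tested, of which 4 rose and 3 fell with IL-4 (5.02% and 8.89% of all genes), and 4 rose and 1 fell with IL-6 (3.49% and 1.89% of all genes). Among the prostaglandin E2 receptors, Ptger2 and Ptger4 split between the cytokines. Ptger1 was not called with IL-4 (-0.90, adjusted p = 0.136 by limma) or with IL-6 (-0.03, adjusted p = 0.969). Ptger2 rose with IL-4 (2.11, adjusted p = 1.1e-05 by limma), from 3.96 to 4.28 FPKM in control to 16.4 to 19.1, and was 0.09 with IL-6. Ptger4 instead fell with IL-4 (-2.28, adjusted p = 0.000119) and rose with IL-6 (1.81, adjusted p = 0.00116), at 2.80 to 3.78 FPKM in control, 0.433 to 0.715 with IL-4 and 10.7 to 12.6 under IL-6. Ptgir, the prostacyclin receptor, rose with both (3.23 with IL-4 and 1.48 under IL-6). Cysltr1, a receptor for cysteinyl leukotrienes, rose with IL-6 (1.91, adjusted p = 0.0182). The lipid and peptide receptors Fpr2 and Cmklr1 fell with IL-4 (-1.56 and -1.91), and Fpr2 rose with IL-6 (1.94). Pparg, a nuclear receptor with oxidized fatty acids among its ligands, rose with IL-4 (1.38, adjusted p = 0.00254) and fell with IL-6 (-2.09, adjusted p = 0.000944).

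**Figure D4:**
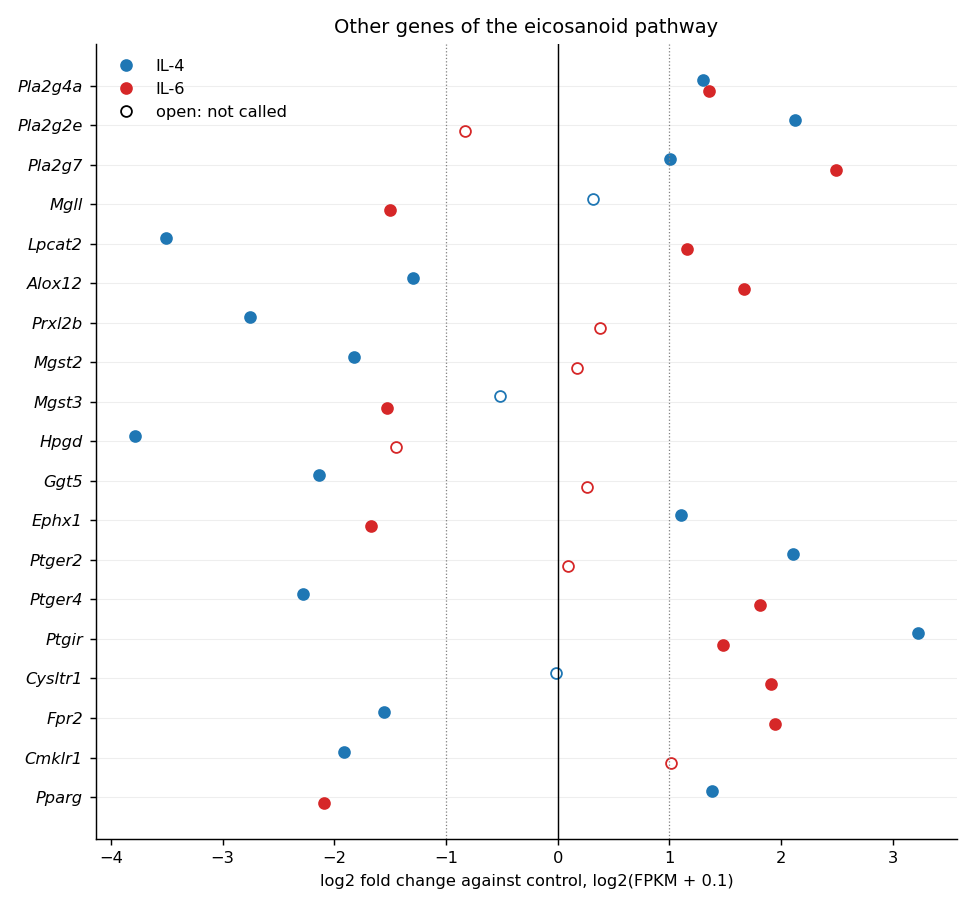
Log2 fold changes against control on the log2(FPKM + 0.1) scale (horizontal axis) with IL-4 (blue) and IL-6 (red), for the pathway genes with the largest called changes (at most 12 for each cytokine); open points were not called in that comparison and dotted lines mark -1 and 1. Lpcat2 lies at -3.50 with IL-4 and 1.16 under IL-6, Ptger4 at -2.28 and 1.81, and Pparg at 1.38 and -2.09.

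Some of the enzymes are also expressed by other marrow cells, so marker lists were summed for each library. Mϕ markers were present throughout and differed between groups. They summed to 2918 to 2959 FPKM in control and 1400 to 1651 with IL-4 (4 of 8 genes called lower). With IL-6 they summed to 2515 to 2629, with 1 gene called higher and 0 lower. Markers of neutrophils and their precursors, cells rich in Alox5 and Alox5ap, summed to 5028 to 8881 FPKM in control. They summed to 2220 to 4149 with IL-4 (9 of 10 genes lower) and to 8098 to 11250 with IL-6 (0 genes called against control). The neutrophil sums were lower beside the lower Alox5 values of the IL-4 group, but for Alox5 not library by library. The sum was 2369, 2220 and 4149 in IL-4 #1 to #3, and Alox5 was lowest in IL-4 #3. Alox5ap had the order of the sums in IL-4 (142, 137 and 219 FPKM) and in control, but not between IL-6 #2 and #3. Markers of megakaryocytes and platelets, which carry Ptgs1, Tbxas1 and Alox12, summed to 328 to 498 FPKM in control, 153 to 233 with IL-4 (3 of 8 lower) and 1247 to 2506 with IL-6 (6 of 8 higher), in the direction of Alox12 with both cytokines. For the platelet enzymes among the members, Ptgs1 was 1.89-fold control with IL-4, where these markers were lower, and 1.26-fold control with IL-6, while Tbxas1 was 1.08-fold and 0.693-fold. Mast cell and basophil markers, cells known for Hpgds and Ltc4s, summed to 8.83 to 16.8 FPKM in control. They summed to 32.9 to 50.7 with IL-4 (of 7 tested genes, 5 higher and 1 lower) and 7.08 to 15.5 with IL-6. With IL-4 this was opposite to the direction of both enzymes. Tpsb2 and Mcpt4 were at 0 in all libraries. Eosinophil markers, cells known for Alox15 in mice and for Ltc4s, were at 69.7 to 162 FPKM in control. They were at 16.5 to 21.9 with IL-4 (2 of 4 tested genes lower) and 18.9 to 30.1 with IL-6 (1 of 4 lower). These sums went in the direction of Alox15 and of Ltc4s.

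Other lists were low. Dendritic cell markers summed to 5.10 to 5.92 FPKM in control, 1.38 to 3.02 with IL-4 and 3.11 to 6.50 under IL-6, tuft cell markers, cells known for Hpgds and Ptgs1, to 0.343 to 0.396, 0.916 to 2.23 and 0.0849 to 0.237 with Il25 at 0, and enterocyte markers to 0.487 to 1.17, 0.0322 to 0.371 and 0.148 to 0.208. Skeletal muscle genes summed to 6.18 to 8.85 FPKM in control, 2.22 to 11.3 with IL-4 and 10.3 to 16.2 under IL-6. The intestinal list was at 47.5 to 62.2 FPKM in control, at 40.7 in IL-4 #1 and at 0.0139 to 0.175 in the other libraries. The part of any of these cells in the enzyme levels was not tested.

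**Figure D5:**
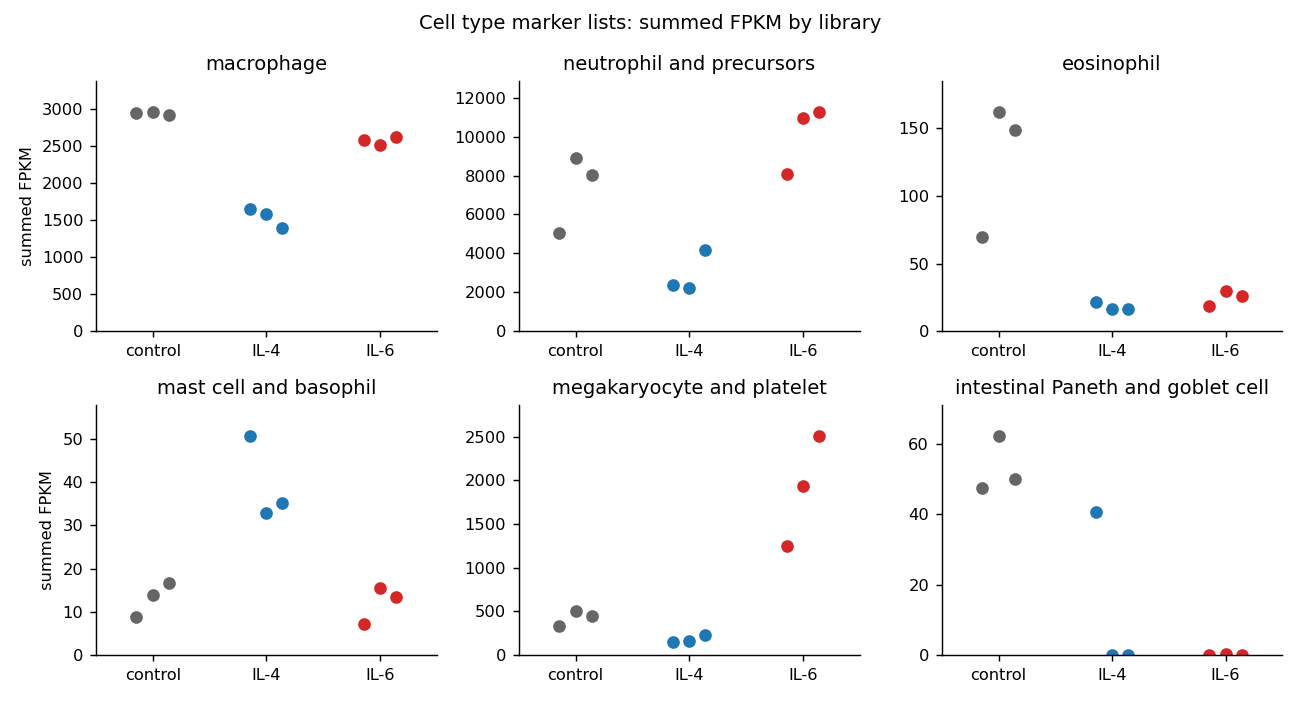
Summed FPKM of marker lists (vertical axes, linear, from 0) in each library, in the order #1 to #3 within control (grey), IL-4 (blue) and IL-6 (red). Neutrophil markers are lowest with IL-4 at 2220 to 4149 FPKM, megakaryocyte and platelet markers are highest with IL-6 at 1247 to 2506, and the intestinal list is at 40.7 or more in the controls and IL-4 #1.

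Across the 9 libraries, the genes whose log2 levels followed each called enzyme most closely were described by Pearson's r, which carries the difference between the groups and is given with no test. Hpgds ran with Abcc3, an efflux transporter (r = 0.9991), and Hpse, heparanase (r = 0.998), and 448 genes reached 0.95. Abcc3 averaged 53.5 FPKM in control, 5.19 with IL-4 and 31.9 under IL-6, which is close to the levels of Hpgds in each group. Ptgs2 ran with C1qtnf6 (r = 0.990) and Vcan, the matrix proteoglycan versican (r = 0.989), and 66 genes reached 0.95. Vcan averaged 0.0864 FPKM in control, 0.123 with IL-4 and 6.24 under IL-6. Ltc4s ran with Pdlim4 (r = 0.980) and Ascc1 (r = 0.973), and Ptges with Slc25a15 (r = 0.960) and Il2rg (r = 0.9502), with 12 and 2 genes at 0.95 or more.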

How the data were processed

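RNA-seq of bone marrow-derived Mϕs from C57BL/6 mice was re-analysed from the values that the authors deposited, which are FPKM in 1 table of 53379 genes and 9 libraries. RNA was made into libraries with a stranded TruSeq mRNA kit and sequenced on a HiSeq instrument. The submitters' processing notes name STAR 2.4.2a, Cufflinks 2.2.1 and GRCm38. Gene identifiers matched GENCODE M21 with version for 50604 genes (94.8%). FPKM steps were compared with M21 exon lengths: all 141433 values tested were whole within 0.05, which gave each library's total (29988160 to 39909571). Whole steps are what a read counter gives, and which program and annotation made the table is not settled here. Counting error at low levels follows from these fragments only. Doses and times follow the labels; the study's methods give a higher IL-4 dose, and a figure legend gives another dose and time.

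FPKM were transformed as log2(FPKM + 0.1), which understates changes of low genes. The 12824 genes with a mean of at least 0.5 FPKM entered limma 3.58.1 (R 4.3.3) as 3 groups in one model (eBayes with trend and robust options, Benjamini-Hochberg adjustment). Alox15 came from the same fit without the filter. Adjusted p-values are from limma throughout, each fold divides mean FPKM of 2 groups, and the error given is the SD of 3 libraries. The fit was also run on simulated counts with no library set, so that run does not vouch for the test on these libraries. Tables and plots used Python 3.11.15, pandas 2.3.3, numpy 2.4.6, scipy 1.17.1 and matplotlib 3.10.9. No column of another sample was present (0 unmapped columns).

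The enzymes, pathway genes, marker lists and sets of libraries were chosen with earlier results of these data known, and the TATA box, GC box and E-box were added to the motifs after the data were seen. Named pathway genes are at most the 12 called with the largest change per comparison. Ptger1, which was not called, is named beside the other prostaglandin E2 receptors. The genes named as most like an enzyme are the 2 with the highest r. The alternatives, 21 per comparison, were other pseudocounts, filters, scalings, groups in the fit, a replicate block, the set of libraries as a term, plain eBayes, adjusted p alone, limma voom on the recovered fragments, and leaving out each library.

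The design text names 3 mice, and the column names carry the same 3 numbers in each group. Deviations of same-numbered libraries from their group means correlated at 0.521, -0.415 and 0.0777 for IL-4 with control, 0.408, 0.201 and 0.166 for IL-6 with control, and 0.281, -0.0612 and 0.153 for IL-6 with IL-4. The main fit has no block. Where libraries came from is otherwise as the labels state, so p-values measure the spread between these libraries.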

Additional observations from a re-analysis of the deposited data

How the results depend on the processing

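Of the values computed for single enzymes under alternatives, 581 kept their side of the threshold, 24 lost the call, 9 gained it and 1 turned. A change of sign was not counted as a turn where the main value was smaller than its SE and no call was made. Such changes are among the 581, as for Alox5ap with IL-6 (0.17 to -0.12 with the set as a term). The Hpgds fall with IL-4 and the Ptgs2 rise with IL-6 kept their calls under each alternative that gave a value. The count of called enzymes became 1 for IL-4 against control (2 in the main fit) with a pseudocount of 1, no filter, quantile normalization or only the groups compared, each through Ltc4s (-0.78, -1.11, -0.85 and -1.11, with adjusted p = 0.033, 0.0766, 0.18 and 0.0971, limma). With median ratio scaling Ltc4s (-0.92) was lost and Ptgs1 (1.11) gained. For IL-6 against control the count was 1 (2 in the main fit) with a pseudocount of 1, no filter, quantile normalization or the set of libraries as a term, each through Ptges (0.66, 1.06, 0.97 and 1.67). Hpgds with IL-6 turned from -0.64 to 0.24 with the set as a term. For IL-6 against IL-4, adjusted p alone gave 7 enzymes (3 in the main fit), and Ptges was 0.87 with a pseudocount of 1. Leaving out 1 library at a time gave 1 to 3 enzymes for IL-4 against control, with 3 (Hpgds, Ltc4s and Ptgs1) without IL-4 #3, and 1 to 2 for IL-6 against control.

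Over all genes the calls for IL-4 against control (1784) became 847 with a mean of at least 5 FPKM, 1111 with the set as a term and 3186 on adjusted p alone, those for IL-6 against control (690) became 306, 187 and 1077, with 387 to 1001 when 1 library was left out, and those for IL-6 against IL-4 (2613) became 1219 with the higher filter and 4375 on adjusted p alone. The filter at 5 FPKM leaves no value for Alox15, Alox5, Ptgs2, Ptges and Ltc4s. The share of calls that were higher with IL-4 was 36.1%, but 48.8% with median ratio scaling, 49.3% with quantile normalization and 46.2% with the set as a term. For IL-6 against IL-4 it was 66.5%, and 54.6% with median ratio scaling and 50.9% with quantile normalization. For IL-6 against control it was 64.8%, and 78.6% with the set as a term and 54.5% on adjusted p alone. The median of all genes with IL-4 moved from -0.20 to -0.01 under median ratio scaling, and the direction of Hpgds and Ltc4s did not turn. Without IL-4 #3 this median was -0.07, and 45.5% of calls were higher with IL-4. Without IL-4 #1 it was -0.27 (32.1% higher), and without IL-4 #2 it was -0.25 (34.1% higher). Voom on the fragments called 1682, 605 and 2394 genes in the 3 comparisons. The cause of these shifts was not tested.

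The replicate block, entered because the labels share replicate numbers, changed no enzyme's call and gave 1788, 656 and 2734 genes. Under it Ltc4s with IL-4 had an adjusted p of 0.042 and Ptges with IL-6 one of 0.0387. Ptgs2, Alox15, Ltc4s and Ptges rest on 12 to 509 fragments a library, so their values carry more counting error than those of the other enzymes.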

Other observations

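Below the filter, other genes of the pathway differed between the groups; they were chosen after their values were seen, and the tests come from the fit of 31047 genes without the filter (limma). Ptgis, prostacyclin synthase, was at 0.810 to 1.07 FPKM with IL-4, at 0.117 or lower in control and at 0.0447 to 0.114 with IL-6, with a log2 fold change of 2.80 for IL-4 against control (adjusted p = 0.00132) and 0.22 for IL-6 against control (adjusted p = 0.81). Pla2g5, a secreted phospholipase A2, was at 1.04 to 1.84 FPKM with IL-4 and at 0.0297 to 0.0578 in control, a difference of 3.26 on the log2 scale (adjusted p = 0.000205). Ptger3, a prostaglandin E2 receptor, was at 0.917 to 1.07 FPKM with IL-6, 0.194 to 0.242 in control and 0.1498 to 0.226 with IL-4, a difference of 1.83 on the log2 scale for IL-6 against control (adjusted p = 0.00354).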
